A study of Homo sapiens with 6 samples.

Results

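The genes examined here encode the enzymes of sterol and fatty acid synthesis and the proteins that set their transcription. They were measured in PC9/gef, a gefitinib-resistant line of lung adenocarcinoma cells, and in PC9, the gefitinib-sensitive line from which PC9/gef was selected by continuous exposure to rising concentrations of gefitinib, an inhibitor of the EGFR kinase. Total RNA of 3 PC9/gef and 3 PC9 samples, called biological replicates in the sample labels, was hybridized to Affymetrix Human Genome U133 Plus 2.0 arrays, 1 array per sample. Both lines were grown in RPMI-1640 medium with fetal bovine serum, which supplies cholesterol and fatty acids. Whether gefitinib was in the medium when RNA was taken is not given in the sources used here. The comparison rests on 1 resistant line and its parent, so an effect of the drug and any other change gained during selection cannot be told apart. The members are all probe sets annotated to exactly 1 of 31 listed gene symbols. They came to 61 of 54613 probe sets, controls left out, and measured 28 of the 31 genes, out of 19775 genes in all. FDFT1, CYP51A1 and FADS1 had no probe set annotated to them alone and were not analysed here.

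Cholesterol is built from acetyl-CoA through the mevalonate pathway, which also feeds ubiquinone and the lipid anchors of prenylated proteins, and then through squalene and lanosterol. Long-chain fatty acids are built from the same acetyl-CoA and are then elongated and desaturated. Transcription of both sets of enzymes is driven by the SREBP factors, which are held in the endoplasmic reticulum by INSIG proteins when sterols are plentiful and are carried to the Golgi and cleaved when sterols are scarce. SREBP-2, encoded by SREBF2, acts mainly on sterol genes, and SREBP-1, encoded by SREBF1, mainly on fatty acid genes. EGFR signaling is known to raise SREBP-1 activity in several tumor types.

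Expression is given on the log2 scale of the deposited values, where a difference of 1 is a 2-fold change. Each gene was read from the probe set that was brightest on average, and differences are PC9/gef minus PC9. A log2 level of 2.65 was taken as the background level, since 95% of 135 probe sets for olfactory receptors, genes silent in most tissues, had a mean at or below it. Arrays of 1 line were nearly identical (lowest r = 0.9992 over all probe sets), whereas the highest correlation between arrays of different lines was 0.9944. The labels do not say whether the replicates came from separate cultures, so the p-values measure the spread between these samples, which may be technical. With 3 arrays per line the smallest two-sided p of an exact permutation test is 0.1, and limma was therefore fitted over all probe sets. The 7 epithelial markers all lay above background level, with mean log2 values between 9.66 and 15.09 in PC9/gef and between 9.60 and 15.20 in PC9. All 3 markers each of endothelium, hepatocytes and adipocytes lay at background level in both lines, as did 4 of 5 fibroblast and 3 of 4 leukocyte markers. The exceptions were COL1A1, at 8.46 in PC9/gef and 7.94 in PC9, and LYZ, at 7.69 in PC9/gef and 8.77 in PC9. Their part in the results was not tested. In bulk RNA, fewer expressing cells and less RNA per cell cannot be told apart.

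Of the 28 measured genes, 8 were higher and 5 were lower in PC9/gef, 13 failed the test and 2, MVD and STARD4, lay at background level in both lines (limma, Benjamini-Hochberg adjusted p under 0.05 over all genes). By the same rule 31.5% of all genes were called, 14.4% higher and 17.1% lower. Of the 26 members above background level in at least 1 line 13 were called, which is 50%, against 46% of all 11955 such genes (23.8% higher and 22.2% lower). The share is near that background and is no result about the group. The sizes of the changes were likewise close, with a median absolute log2 change of 0.16 over the 26 members and 0.18 over all genes above background level. The arrays of the lines did not overlap for 18 of the 26 members, against 65% of all genes above background level. No member changed over 2-fold, the limit used in the study, whereas 2.88% of all genes did and 4.77% of those above background level. Tested with limma's treat against a minimum change of 1.5-fold, 0 members passed (3 at an unadjusted p under 0.05, namely FASN, SCD and SREBF1), against 2.65% of all genes (5.44% unadjusted).

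**Figure D1:**
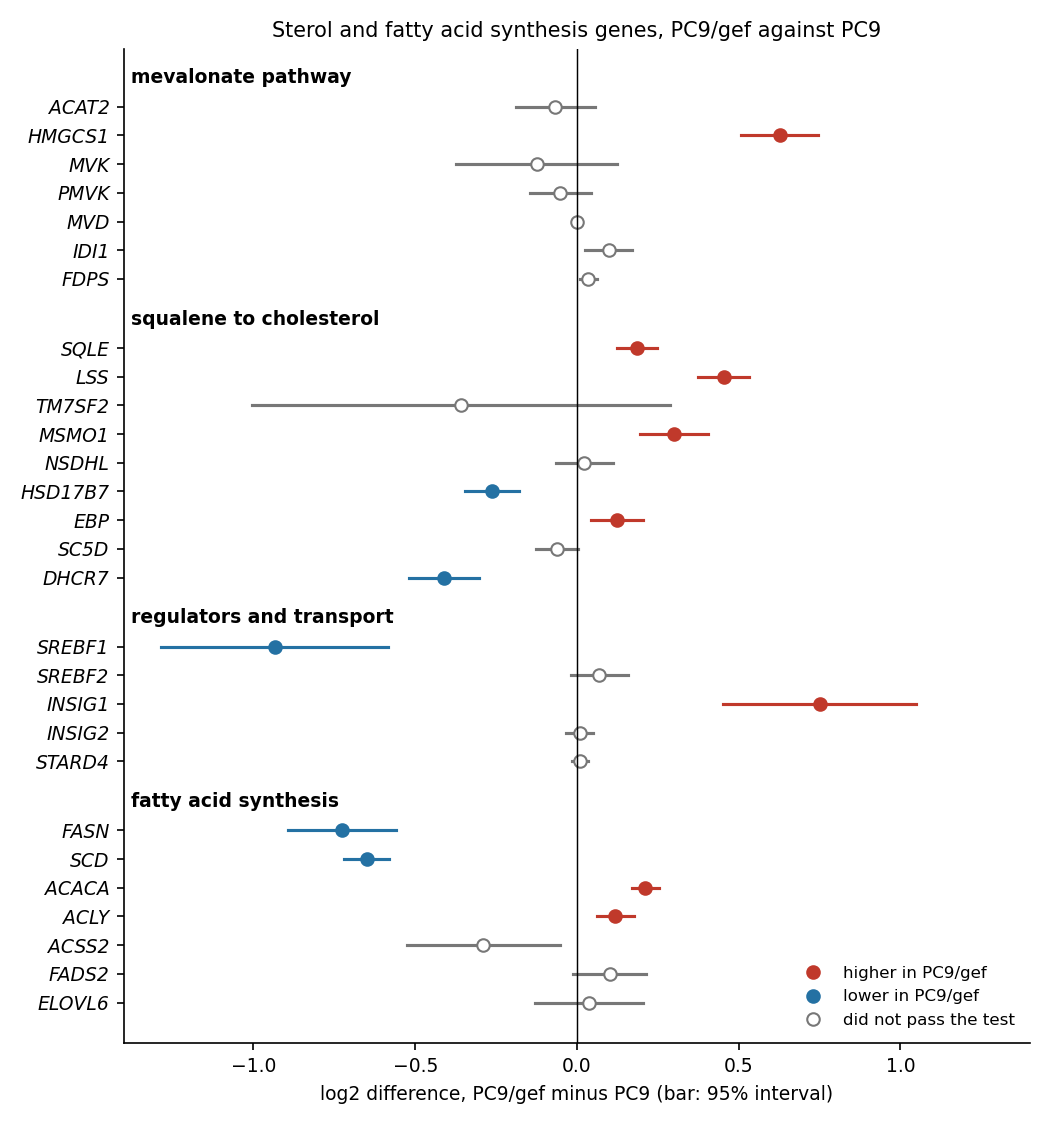
Log2 difference between PC9/gef and PC9 (x axis) for the 28 measured genes, grouped by role. Points are the estimates and bars the 95% intervals, filled for genes that passed the test. HMGCS1, LSS and INSIG1 lie furthest to the right, and SREBF1, FASN and SCD furthest to the left.

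The promoters of 6 members are shown, chosen from genes with changes described below and, for SREBF2, for the only match to the form of sterol element searched here. Not all changed genes are shown, and SREBF1, with the largest change, is among those left out. They come from RefSeq (GRCh38.p14), which gave promoters for 25 of the 28 measured genes. Each window runs from 250 bases before to 50 after a gene's start, 5′ to 3′ on the gene's strand, and where a gene has several starts the one listed first is printed. Capitals mark CCAAT, the element bound by NF-Y, a partner of the SREBP factors, read on either strand (ATTGG on the opposite one), and TCACNCCAC, a form of the sterol regulatory element. The windows lie at chr5:43313363-43313662 (minus strand), chr21:46228725-46229024 (minus strand), chr11:71448344-71448643 (minus strand), chr7:155297628-155297927 (plus strand), chr22:41832855-41833154 (plus strand) and chr10:100346983-100347282 (plus strand).
HMGCS1: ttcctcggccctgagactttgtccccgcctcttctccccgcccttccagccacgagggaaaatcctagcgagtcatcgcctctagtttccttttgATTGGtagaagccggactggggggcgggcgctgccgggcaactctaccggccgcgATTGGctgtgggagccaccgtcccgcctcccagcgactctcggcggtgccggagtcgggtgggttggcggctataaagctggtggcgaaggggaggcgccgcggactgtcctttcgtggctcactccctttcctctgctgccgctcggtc
LSS: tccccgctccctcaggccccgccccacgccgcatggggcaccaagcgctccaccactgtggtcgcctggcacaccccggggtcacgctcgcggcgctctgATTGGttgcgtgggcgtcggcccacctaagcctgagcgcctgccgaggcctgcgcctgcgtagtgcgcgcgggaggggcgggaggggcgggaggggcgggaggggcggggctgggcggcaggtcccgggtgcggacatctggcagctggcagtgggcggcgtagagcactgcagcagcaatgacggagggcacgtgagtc
DHCR7: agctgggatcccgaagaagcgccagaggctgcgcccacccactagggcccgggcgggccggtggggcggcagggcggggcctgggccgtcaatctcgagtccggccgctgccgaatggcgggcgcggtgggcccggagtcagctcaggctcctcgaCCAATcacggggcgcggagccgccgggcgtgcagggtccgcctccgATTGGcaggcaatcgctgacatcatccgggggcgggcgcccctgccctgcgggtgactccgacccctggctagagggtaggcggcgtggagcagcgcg
INSIG1: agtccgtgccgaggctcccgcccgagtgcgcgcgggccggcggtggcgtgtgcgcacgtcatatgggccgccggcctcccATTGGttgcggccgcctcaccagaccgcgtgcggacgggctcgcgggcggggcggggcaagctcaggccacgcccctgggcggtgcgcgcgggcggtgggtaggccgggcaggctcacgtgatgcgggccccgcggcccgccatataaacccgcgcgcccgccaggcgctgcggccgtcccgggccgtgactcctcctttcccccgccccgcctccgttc
SREBF2: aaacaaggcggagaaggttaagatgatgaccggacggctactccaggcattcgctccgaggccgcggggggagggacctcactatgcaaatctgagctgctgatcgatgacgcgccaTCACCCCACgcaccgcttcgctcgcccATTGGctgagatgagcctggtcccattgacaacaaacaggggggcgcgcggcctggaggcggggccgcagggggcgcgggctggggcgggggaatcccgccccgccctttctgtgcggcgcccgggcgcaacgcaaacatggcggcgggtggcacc
SCD: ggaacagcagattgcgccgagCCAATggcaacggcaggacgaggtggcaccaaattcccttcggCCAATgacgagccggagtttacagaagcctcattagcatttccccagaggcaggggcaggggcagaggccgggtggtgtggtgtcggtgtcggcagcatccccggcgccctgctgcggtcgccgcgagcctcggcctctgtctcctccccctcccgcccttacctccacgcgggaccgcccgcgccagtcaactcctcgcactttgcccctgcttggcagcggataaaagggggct

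CCAAT was found on either strand in a promoter of 21 of the 25 members, 84%, against 39.7% of all 27305 genes with a promoter and 43.5% of the 9777 such genes above background level. It was in all 7 higher members with a promoter, in 3 of the 4 lower ones and in 11 of the 14 that were not called. A difference by direction was not tested. The lower member without CCAAT was SREBF1, whose promoter is not printed above. A gene was counted where any of its windows held the element. Windows per gene averaged 1.57 in higher members, 1.25 in lower ones, 1.43 in those not called and 1.29 over all genes. GGGCGG, a binding sequence of SP1, another partner of the SREBP factors, was in 24 of the 25 (96%, against 48.3% of all genes and 76.5% of those above background level). Of the forms of the sterol element, only TCACNCCAC was searched. It was in the SREBF2 promoter alone, 4% of the members against 1.39% of all genes and 1.44% of those above background level. CACGTG, the palindromic E-box, was in 3 members, 12%, against 8.77% of all genes and 12.7% of those above background level. These are counts of letters in a short window, given without a test.

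In the mevalonate pathway, 1 of the 6 genes above background level passed the test, 16.7% against 46% of all such genes. This was HMGCS1, the synthase that condenses acetoacetyl-CoA and acetyl-CoA, and it was higher in PC9/gef. Its brightest probe set had log2 values of 10.56, 10.58 and 10.63 on the PC9/gef arrays, against 9.88, 9.98 and 10.02 on the PC9 arrays. Every PC9/gef array thus lay above every PC9 array. The rise was 1.54-fold (log2 change 0.63, SE, standard error, 0.044, adjusted p = 0.0011). Its second, dimmer probe set did not follow, with values of 5.72, 5.80 and 5.43 in PC9/gef against 6.09, 6.01 and 5.71 in PC9 (log2 change -0.29, 95% interval -0.70 to 0.13). With the mean of both probe sets the gene did not pass (log2 change 0.17, adjusted p = 0.104).

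The other enzymes of this stretch differed little. FDPS, which makes farnesyl diphosphate, the branch point to sterols and prenyl groups, had values of 11.81, 11.79 and 11.80 in PC9/gef against 11.75, 11.77 and 11.77 in PC9. The arrays did not overlap, but the log2 change was 0.036 (adjusted p = 0.054). IDI1, the isopentenyl diphosphate isomerase, had a log2 change of 0.098 (95% interval 0.026 to 0.17, adjusted p = 0.054), and its probe set not named _x_at, which lay nearer to background, one of -0.14 (95% interval -0.28 to 0.0044). For ACAT2, which joins acetyl-CoA units, the log2 change was -0.066 (95% interval -0.19 to 0.056). The mevalonate kinase MVK (log2 change -0.12, 95% interval -0.37 to 0.12) and the phosphomevalonate kinase PMVK (-0.051, -0.15 to 0.043) had overlapping arrays, and MVK was called lower without PC9/gef replicate 2 (adjusted p = 0.015). The single probe set of MVD, the next decarboxylase, stood at 2.36 on all 6 arrays, so no change could be seen for it.

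Between squalene and cholesterol, 4 of the 9 measured genes were higher, 2 were lower and 3 did not pass the test. That is 66.7% called, against 46% of all genes above background level, a difference that was not tested. LSS, the cyclase that makes lanosterol, had log2 values of 8.34, 8.33 and 8.37 in PC9/gef, against 7.93, 7.91 and 7.84 in PC9. It was 1.37-fold higher (log2 change 0.45, SE 0.030, adjusted p = 0.00093). MSMO1, the methylsterol oxidase that starts removal of the methyl groups at carbon 4, had 11.41, 11.33 and 11.40 in PC9/gef, against 11.06, 11.04 and 11.15 in PC9. It was 1.23-fold higher (log2 change 0.30, SE 0.040, adjusted p = 0.0072). SQLE, the squalene epoxidase and a rate-limiting step, had 10.05, 9.98 and 10.01 in PC9/gef, against 9.82, 9.86 and 9.81 in PC9. It was 1.14-fold higher (log2 change 0.19, SE 0.023, adjusted p = 0.0061), and it did not pass with the mean of its 4 probe sets (adjusted p = 0.241).

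EBP, the isomerase that moves the double bond of the sterol ring, rested on a small difference. Its brightest probe set had 10.61, 10.64 and 10.68 in PC9/gef, against 10.55, 10.54 and 10.47 in PC9 (1.09-fold higher, adjusted p = 0.040). The call was lost without any single array, with adjusted p from 0.063 without PC9/gef replicate 1 to 0.105 without PC9/gef replicate 3. On a further EBP probe set the difference was larger, with 10.33, 10.38 and 10.38 in PC9/gef against 10.08, 10.04 and 10.15 in PC9 (log2 change 0.27, adjusted p = 0.0088 over all probe sets).

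The lower genes of this stretch were DHCR7 and HSD17B7. DHCR7, the last enzyme of the branch through 7-dehydrocholesterol, had log2 values of 8.62, 8.57 and 8.57 in PC9/gef, against 8.92, 9.01 and 9.06 in PC9. It was 1.33-fold lower (log2 change -0.41, SE 0.041, adjusted p = 0.0030). Its other probe set fell as well, with 6.82, 6.84 and 6.87 in PC9/gef against 7.16, 7.17 and 7.28 in PC9 (log2 change -0.36, adjusted p = 0.0069 over all probe sets). HSD17B7, the ketosteroid reductase that completes demethylation at carbon 4, had 9.05, 9.01 and 9.08 in PC9/gef, against 9.36, 9.29 and 9.27 in PC9. It was 1.20-fold lower (log2 change -0.26, SE 0.032, adjusted p = 0.0054). Its single probe set, named _x_at, can also bind related transcripts, and a near-identical pseudogene of HSD17B7 exists, so the gene's own value is uncertain.

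SC5D, the desaturase that acts just before DHCR7, had 8.39, 8.39 and 8.40 in PC9/gef against 8.46, 8.50 and 8.41 in PC9, and did not pass (log2 change -0.062, adjusted p = 0.116), but was called without PC9 replicate 3 (adjusted p = 0.027). NSDHL, which removes the carboxyl group at carbon 4, had a log2 change of 0.023 (95% interval -0.066 to 0.11). For TM7SF2, a sterol reductase, the arrays scattered widely, with 5.19, 4.92 and 5.45 in PC9/gef against 5.15, 5.67 and 5.82 in PC9. Its log2 change was -0.36 with an interval from -1.0 to 0.29, so a change of either sign is within the error.

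Among the regulators, INSIG1 was higher and SREBF1 lower, while SREBF2 and INSIG2 did not pass the test. INSIG1, which retains the SREBP factors and is itself a gene they switch on, had log2 values of 8.02, 7.79 and 8.0 in PC9/gef, against 7.02, 7.20 and 7.34 in PC9. The lowest PC9/gef array was above the highest PC9 array, and the rise was 1.68-fold (log2 change 0.75, SE 0.11, adjusted p = 0.010). Its other probe sets pointed the same way without passing. On the second the values were 6.50, 6.49 and 6.05 in PC9/gef against 5.65, 5.80 and 5.59 in PC9 (log2 change 0.67, adjusted p = 0.058 over all probe sets), and on the third the arrays overlapped (log2 change 0.22, 95% interval -0.19 to 0.62).

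SREBF1 had values of 4.57, 4.74 and 4.44 in PC9/gef, against 5.50, 5.71 and 5.35 in PC9. It was 1.91-fold lower, the largest change among the members (log2 change -0.93, SE 0.13, adjusted p = 0.0088). A second SREBF1 probe set lay close to background at 3.11 to 3.23 in PC9/gef and 3.18 to 3.21 in PC9, with a log2 change of -0.027 (95% interval -0.12 to 0.069). The probe sets are not annotated to the SREBP-1a or SREBP-1c transcript, so the forms were not told apart. SREBF2, whose promoter holds the TCACNCCAC match shown above, had 5.94, 6.04 and 5.97 in PC9/gef, against 5.91, 5.89 and 5.95 in PC9. The log2 change was 0.070 with an interval from -0.019 to 0.16, which leaves out a change as large as that of SREBF1. Its dimmer probe sets had wider intervals, with log2 changes of 0.0098 (95% interval -0.31 to 0.33) and -0.25 (-0.74 to 0.24). INSIG2, the relative of INSIG1, had 9.86, 9.85 and 9.87 in PC9/gef, against 9.88, 9.83 and 9.85 in PC9 (log2 change 0.0091, 95% interval -0.033 to 0.051). STARD4, a carrier of cholesterol between membranes, lay at background level, at 2.32 in PC9/gef and 2.31 in PC9.

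**Figure D2:**
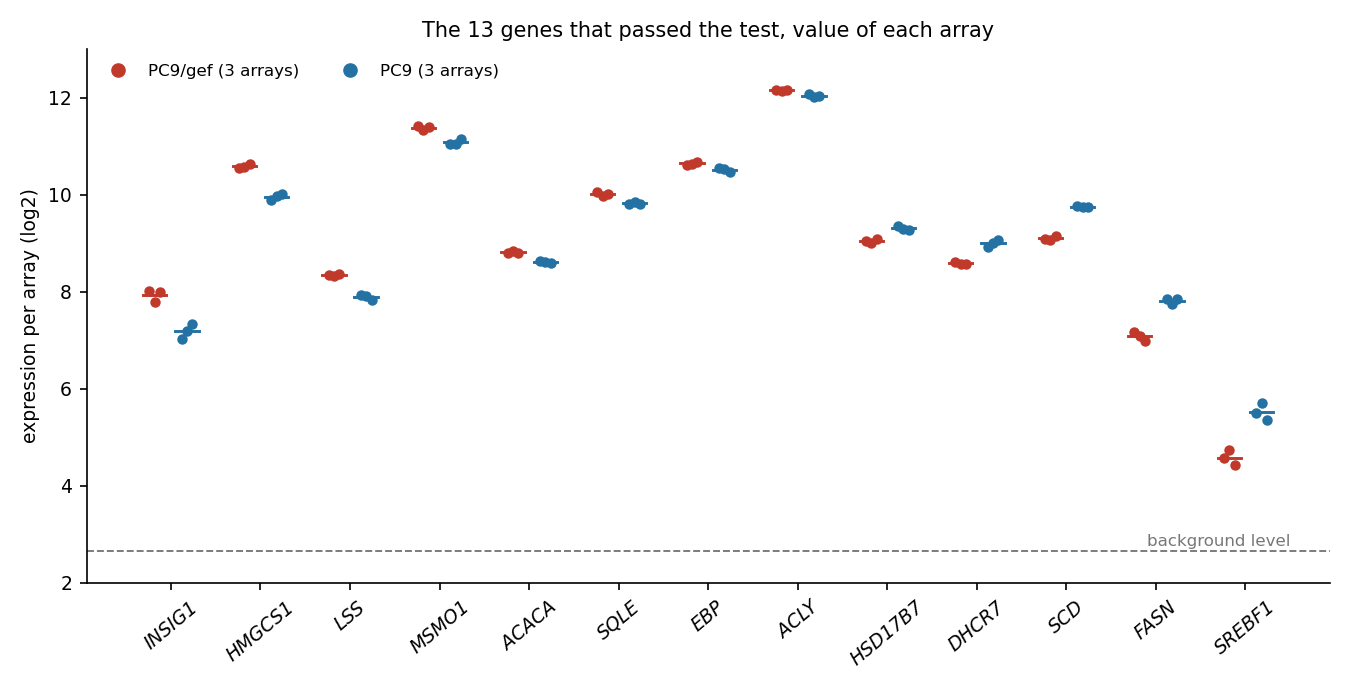
Log2 expression on each array (y axis) of the 13 genes that passed the test, from the largest rise to the largest fall, with PC9/gef arrays to the left of PC9 arrays. Bars are the means of 3 arrays and the dashed line is the background level of 2.65. The arrays of the lines lie apart in every gene shown.

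In fatty acid synthesis 2 of the 7 measured genes were higher, 2 were lower and 3 did not pass the test. The called share was 57.1%, against 46% of all genes above background level. FASN and SCD, which build palmitate and desaturate it and its longer product, were lower in PC9/gef, and ACACA and ACLY, which supply the malonyl-CoA and the acetyl-CoA, were slightly higher. FASN had log2 values of 7.18, 7.09 and 6.99 in PC9/gef, against 7.85, 7.74 and 7.85 in PC9. It was 1.65-fold lower (log2 change -0.73, SE 0.062, adjusted p = 0.0020). SCD, the stearoyl-CoA desaturase, had 9.09, 9.06 and 9.15 in PC9/gef, against 9.76, 9.76 and 9.74 in PC9. It was 1.57-fold lower, with the lowest adjusted p of the members (log2 change -0.65, SE 0.026, adjusted p = 0.00028). A second SCD probe set fell too, with 5.74, 5.80 and 6.05 in PC9/gef against 6.58, 6.72 and 6.86 in PC9 (log2 change -0.85, adjusted p = 0.015 over all probe sets). The probe sets that read FASN and SCD are all named _s_at or _x_at, so these falls have no reading from a probe set of the plain kind. The other FASN probe set lay at background level in both lines (log2 change -0.0094), so the fall of FASN rests on its brightest probe set alone.

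ACACA, the acetyl-CoA carboxylase, had 8.81, 8.84 and 8.81 in PC9/gef, against 8.63, 8.61 and 8.59 in PC9. It was 1.16-fold higher (log2 change 0.21, SE 0.015, adjusted p = 0.0012). Its other probe set, with overlapping arrays, had a log2 change of -0.063 (95% interval -0.21 to 0.081), and with the mean of both the gene did not pass (adjusted p = 0.057). ACLY, the ATP citrate lyase, had 12.17, 12.14 and 12.17 in PC9/gef, against 12.08, 12.01 and 12.03 in PC9 (1.09-fold higher, adjusted p = 0.019). That call was lost without PC9/gef replicate 1 (adjusted p = 0.069) or 3 (0.074), without PC9 replicate 2 (0.051) or 3 (0.072), and with the mean of its 3 probe sets (0.073).

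The remaining fatty acid genes did not pass the test. ACSS2, which makes acetyl-CoA from acetate, had 6.03, 6.14 and 5.95 in PC9/gef, against 6.35, 6.44 and 6.19 in PC9. All its PC9/gef arrays were below the PC9 arrays (log2 change -0.29, 95% interval -0.52 to -0.054, adjusted p = 0.068), and it was called among probe sets above background level only (adjusted p = 0.028). FADS2, the delta-6 desaturase of polyunsaturated fatty acids, was read at 3.73, 3.58 and 3.65 in PC9/gef and 3.55, 3.53 and 3.58 in PC9 (log2 change 0.10, 95% interval -0.011 to 0.21). ELOVL6, which elongates palmitate to stearate, had a log2 change of 0.037 (95% interval -0.13 to 0.20).

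Over all 61 probe sets of the members, 8 were higher and 7 were lower at an adjusted p under 0.05 over all probe sets, which is 24.6% against 16.6% of all probe sets (7.61% higher and 8.99% lower), while 11 lay at background level in both lines, which 50 did not. The share of all probe sets above background level was not counted, so these percentages are not a matched comparison. For genes above background level the shares were 50% of the members and 46% of all. The genes DHCR7 and SCD had calls on more than 1 probe set, each in the same direction. For HMGCS1, ACACA, SQLE and EBP, by contrast, a dimmer probe set had a difference of the opposite sign that did not pass.

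**Figure D3:**
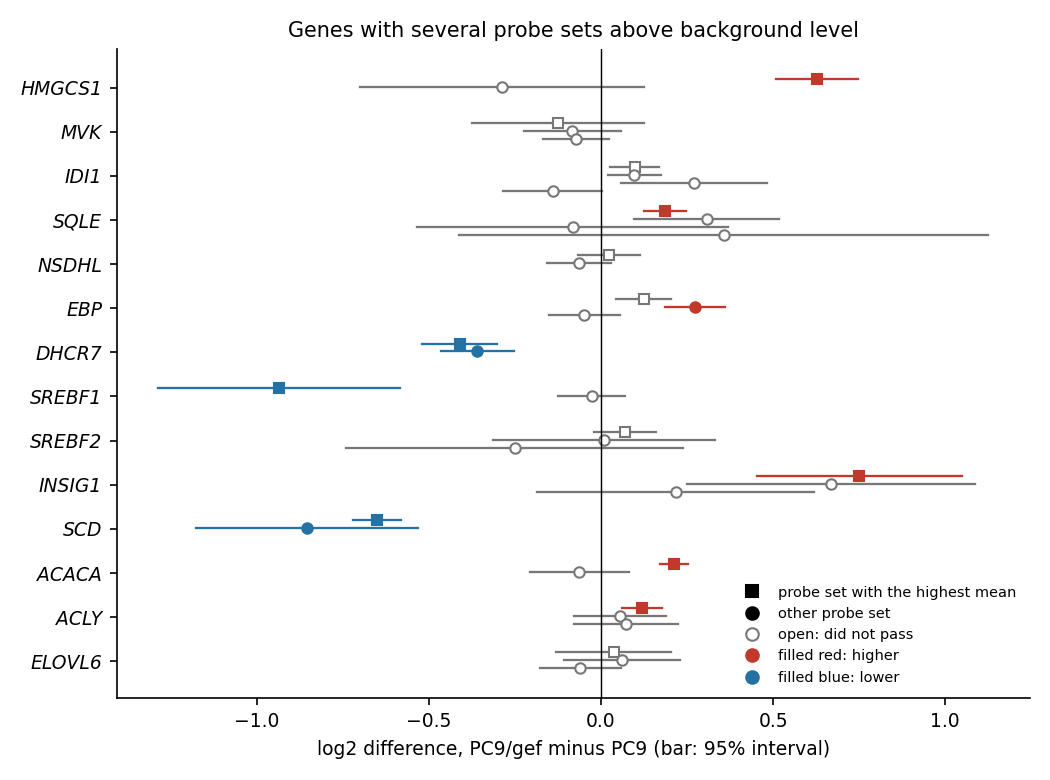
Log2 difference between PC9/gef and PC9 (x axis) on every probe set above background level of the genes with several such probe sets. Squares mark the brightest probe set, circles the others, bars the 95% intervals, and filled symbols an adjusted p under 0.05 over all probe sets. In DHCR7 and SCD the probe sets lie on 1 side, and in HMGCS1 they lie on both.

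The genes nearest to each member on its chromosome were read from the RefSeq gene order, 10 on each side where the chromosome allows, and those above background level were summarized without a test. INSIG1, with a log2 change of 0.75, had 10 such neighbors with a median of -0.024. HMGCS1, with 0.63, had 15 with a median of 0.067, and LSS, with 0.45, had 14 with a median of -0.020. SREBF1 (-0.93, 14 neighbors, median -0.0016), SCD (-0.65, 15 neighbors, median -0.018) and DHCR7 (-0.41, 11 neighbors, median 0.010) also stood apart from the genes around them. The neighbors of HSD17B7 (-0.26) had a median of the opposite sign, 0.35 over 7 genes. Among the called members, the largest neighbor medians in the member's own direction lay around MSMO1, SQLE and FASN. Around MSMO1 (0.30) the median of 12 neighbors was 0.22, with 4 called higher and 0 lower. Around SQLE (0.19) the median of 12 was 0.14, with 6 called higher and 0 lower, and around FASN (-0.73) the median of 14 was -0.18, with 2 called higher and 6 lower. Among members that were not called, IDI1 (0.098) had 8 neighbors with a median of 0.24, larger than its own change, of which 5 were called higher and 0 lower. Of all genes above background level, 23.8% were called higher and 22.2% lower. The part of regional shifts in the members' changes was not tested.

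Genes of other lipid functions were taken from a list of 77, of which 71 were measured. Of these, 14 were higher and 15 lower in PC9/gef, and 33 above background level were not called. Above background level 27 of 60 were called, 45%, again near the 46% of all genes, and their median log2 change was 0.019 against -0.0098 for all genes above background level. Of 7 measured genes of SREBP processing and sterol sensing, 1 was higher and 2 were lower, a called share of 42.9%. SCAP, which escorts the SREBP factors to the Golgi, had 7.75, 7.83 and 7.87 in PC9/gef, against 8.42, 8.34 and 8.39 in PC9. It was 1.48-fold lower (log2 change -0.57, adjusted p = 0.0013), but 11 of its 15 neighbors above background level on chromosome 3 were also called lower, with a median of -0.57. Of all genes above background level 22.2% were called lower. MBTPS1, the protease that makes the first cut in the SREBP factors, was 1.31-fold higher (log2 change 0.39, adjusted p = 0.0035), with 8.76, 8.82 and 8.79 in PC9/gef against 8.45, 8.43 and 8.33 in PC9, and did not pass with the mean of its probe sets (adjusted p = 0.095). SCAP and MBTPS1 were picked after their values were seen.

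Among genes of cholesterol uptake, transport and esterification, 1 of 10 was higher and 4 were lower. Above background level 5 of 9 were called, 55.6%, against 46% of all such genes. LIPA, the lysosomal acid lipase that frees cholesterol from esters taken up with lipoproteins, was 1.77-fold lower, with 8.79, 8.74 and 8.74 in PC9/gef against 9.63, 9.59 and 9.52 in PC9 (log2 change -0.82, adjusted p = 0.00026). SCARB1, the scavenger receptor for high-density lipoprotein, was lower, with 6.72, 6.87 and 6.69 in PC9/gef against 7.40, 7.36 and 7.28 in PC9 (log2 change -0.58, adjusted p = 0.0040). Of 5 measured LXR and efflux genes, all above background level, 0 were higher and 3 were lower. That is 60% called, against 46% of all such genes. MYLIP, an LXR target that marks lipoprotein receptors for degradation, had 6.15, 6.14 and 6.42 in PC9/gef against 6.84, 6.76 and 7.0 in PC9. It was 1.55-fold lower (log2 change -0.63, adjusted p = 0.017), and was not called without PC9/gef replicate 1 (adjusted p = 0.061) or PC9 replicate 1 (0.062) or 3 (0.053), nor on its brightest probe set of the plain kind, which lay at background level (log2 change -0.0081). ABCA1, the cholesterol exporter, and RXRA, the partner of LXR, both picked after their values were seen, were 1.28-fold lower (adjusted p = 0.011) and 1.30-fold lower (adjusted p = 0.011). NR1H3, which encodes an LXR, went the other way without passing (log2 change 0.30, adjusted p = 0.073). It was called higher among probe sets above background level only (adjusted p = 0.030). ABCG1 did not pass (log2 change -0.12, adjusted p = 0.193).

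Of 20 measured genes that supply, elongate or activate fatty acids, 4 were higher and 4 were lower, 1 of them at background level. Above background level 7 of 15 were called, 46.7%, near the 46% of all such genes. SCD5 and FADS3, relatives of the members SCD and FADS2, were higher in PC9/gef. SCD itself was lower, and FADS2 did not pass the test (log2 change 0.10). SCD5, a second stearoyl-CoA desaturase, had 8.93, 8.90 and 8.95 in PC9/gef against 8.22, 8.35 and 8.25 in PC9, a 1.57-fold rise (log2 change 0.65, adjusted p = 0.00071). FADS3, a desaturase of the FADS family, had 7.92, 7.91 and 7.84 in PC9/gef against 6.99, 6.85 and 7.15 in PC9, a 1.86-fold rise (log2 change 0.89, adjusted p = 0.0026). ACSL4, which activates arachidonic acid, was 2.05-fold higher, the only change in the list beyond 2-fold, with 7.78, 7.81 and 7.86 in PC9/gef against 6.61, 6.78 and 6.95 in PC9 (adjusted p = 0.0026). Its probe set of the plain kind lay at background level and could not show a change (log2 change -0.0085). OXSM, the condensing enzyme of mitochondrial fatty acid synthesis, was 1.78-fold lower, with 8.14, 8.24 and 8.03 in PC9/gef against 8.94, 9.04 and 8.91 in PC9 (log2 change -0.83, adjusted p = 0.0018). Of its 11 neighbors above background level on chromosome 3, 9 were called lower, against 22.2% of all such genes. The median of these neighbors was -0.47.

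**Figure D4:**
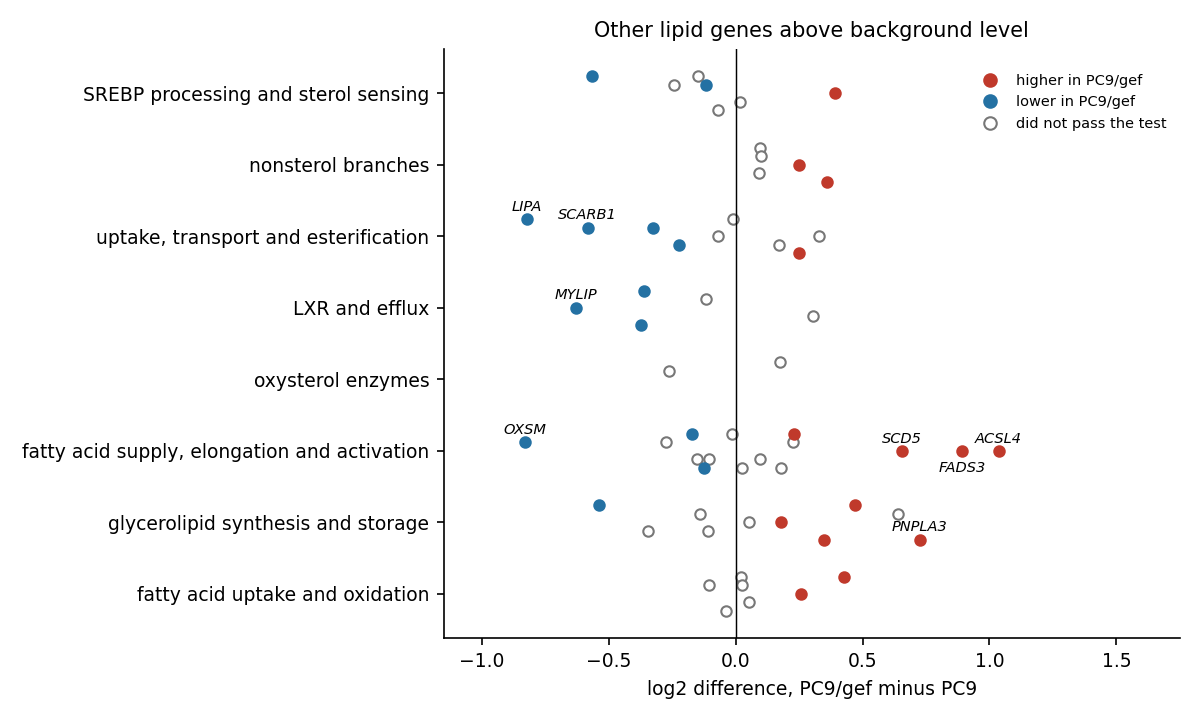
Log2 difference between PC9/gef and PC9 (x axis) for the other lipid genes above background level, 1 row per functional group. Filled points passed the test, and the 8 genes with the largest changes among them are named. ACSL4, FADS3 and PNPLA3 have the largest rises, and OXSM and LIPA the largest falls.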

How the data were processed

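The authors made background-corrected, normalized expression values, 1 per probe set and array, with GC-RMA and GeneSpring GX according to the supplementary methods and with RMA according to the submitters' processing notes (versions are not given in the sources used here). The deposited values are on the log2 scale, from 1.65 to 15.72, and the same sorted values recur on all 6 arrays, so no further normalization was applied. GC-RMA holds dim probe sets at nearly constant values, and differences at background level are not interpretable. The number of arrays limits the precision.

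By the platform annotation 41091 probe sets belong to 1 gene, 1801 to several and 11721 to none, and 62 control probe sets were left out. Differences between the lines were tested with limma 3.58.1 (R 4.3.3), fitted over 54613 probe sets, with Benjamini-Hochberg adjustment over 19775 genes or, where stated, over probe sets, and a threshold of 0.05. The fit was tested on simulated data. Intervals are 95% intervals from the same fit. Figures used matplotlib 3.10.9 under Python 3.11.15.

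The members, the lists and the settings varied were chosen with earlier results of these data known. All members are named, and of the other lipid genes the 8 that changed most among called genes above background level. Further other lipid genes are named that this rule did not choose. Alternatives were median centring, quantile normalization, moderation with a trend or made robust, removal of dim probe sets, a block for the replicate number, omission of each array in turn, averaging all probe sets of a gene, omission of _x_at and _s_at probe sets, a minimum change of 1.5-fold, and adjustment over probe sets.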

Additional observations from a re-analysis of the deposited data

How the results depend on the processing

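Quantile normalization and median centring changed no member's call. The same sorted values recur on all arrays, so these settings could hardly change the values, and the outcome says nothing about stability. Of 436 values of member genes over 16 settings, 399 kept their side of the threshold, 31 lost the call, 6 gained it and 0 changed sign while called. The 436 include quantile normalization, median centring and the members that were not called, which have no call to lose. Among called members, EBP lost its call most often, in 9 of 16 settings, followed by ACLY, in 6 of 15. Against a minimum change of 1.5-fold 0 members were higher and 0 lower, with 0 and 1 of the other lipid genes and 525 of all 6236 called genes. With the mean of all probe sets of a gene 4 members were higher. Without probe sets named _x_at or _s_at 18 members had a value, 7 were higher and 1 was lower, with 9 of the other lipid genes higher and 4157 genes called in all. The 4 falls of DHCR7, HSD17B7, FASN and SCD then have no value. In the other lipid genes CPT1A turned to -0.032 with the mean of all probe sets, and OSBP to -0.015 and ACSL4 to -0.0085 without probe sets named _x_at or _s_at, all short of the threshold. Leaving out 1 array at a time gave 6 to 7 members higher, 5 to 6 lower and 0 to 1 over 2-fold, SREBF1 being that gene, and 11 to 14 other lipid genes higher and 11 to 17 lower. The replicate numbers did not pair the arrays (correlations of same-numbered deviations from -0.026 to 0.048, with 3 of the 6 arrays closest to their own number). With the replicate number as a block, 5 members were higher, without INSIG1 (adjusted p = 0.066), SQLE (0.066) and EBP (0.168), and 6 were lower, ACSS2 among them (0.031), 9 other lipid genes were higher and 11 lower, and 3530 genes were called in all. Signal near background limits MVD, STARD4, FADS2 and the dimmer probe sets.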

Other observations

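Of 10 measured genes of glycerolipid synthesis and storage, all above background level, 4 were higher and 1 was lower in PC9/gef, which is 50% against the 46% of all genes above background level. PNPLA3, a lipid droplet hydrolase that the SREBP factors induce in liver, had log2 values of 6.33, 6.20 and 6.28 in PC9/gef, against 5.54, 5.55 and 5.54 in PC9. It was 1.65-fold higher (log2 change 0.73, SE 0.039, adjusted p = 0.00055). LPIN1 and LPIN2, phosphatidate phosphatases of triglyceride synthesis, were 1.27-fold (adjusted p = 0.00062) and 1.38-fold higher (adjusted p = 0.028). LPIN2 was not called without any single PC9/gef array (adjusted p from 0.065 to 0.094) or without PC9 replicate 2 (0.076). AGPAT2, which makes phosphatidic acid, was 1.45-fold lower, with 9.23, 9.25 and 9.20 in PC9/gef against 9.76, 9.81 and 9.72 in PC9 (adjusted p = 0.00056). PLIN2, the main coat protein of lipid droplets, had 4.93, 5.11 and 5.43 in PC9/gef against 4.64, 4.30 and 4.62 in PC9 and did not pass (log2 change 0.64, adjusted p = 0.054).

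Of 9 measured genes of fatty acid uptake and oxidation, 2 were higher and 1, PPARGC1A, was called lower at background level. Above background level 2 of 7 were called, 28.6%, below the 46% of all such genes. HADHA, a subunit of the mitochondrial trifunctional protein of beta-oxidation, had 10.44, 10.38 and 10.36 in PC9/gef against 9.97, 9.92 and 9.99 in PC9, a 1.35-fold rise (adjusted p = 0.0010). CPT1A, which passes fatty acids into mitochondria, was 1.20-fold higher on its brightest probe set (adjusted p = 0.015), and its log2 change was -0.032 with the mean of all its probe sets. It was not called without PC9/gef replicate 1 (adjusted p = 0.056) or 3 (0.053), nor without PC9 replicate 3 (0.056). Of the nonsterol branches of the mevalonate pathway, the prenyltransferase subunits FNTA (1.19-fold, adjusted p = 0.0047) and PGGT1B (1.28-fold, adjusted p = 0.0024) were higher, PGGT1B not with the mean of its probe sets (adjusted p = 0.806), and 0 of 6 genes were lower. Above background level 2 of 5 were called, 40%, against 46% of all such genes. All genes of these paragraphs except PNPLA3 were picked after their values were seen.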
